A study of Mus musculus with 4 samples.

Results

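Ionotropic GABA receptor subunits were compared between 2 kinds of interneuron of the mouse retina, through the genes Gabra2, Gabra3, Gabrb1, Gabrb2, Gabrg3, Gabrr1 and Gabrr2. All probe sets that the platform annotation gives to exactly 1 of these genes were taken, which were 22 of the 34945 probe sets with a single gene. A probe set is a group of short oligonucleotides on an array that together report 1 transcript. The cells came from the retinas of offspring of mixed C57Bl6 x CD1 strain taken at postnatal day 6. Their sorted cells carried the MP transgene, which marks cells with the cyan fluorescent protein CFP. MP amacrine cells were sorted as CFP+VC1.1+ neurons. MP bipolar cells were sorted as CFP+VC1.1– neurons after VC1.1+ cells had been taken off on a magnetic column, a step that the labels do not give for the amacrine cells, so its effect and that of the cell type cannot be told apart. The antibody VC1.1 binds amacrine but not bipolar cells. There were 2 replicates per group, drawn from separate litters, each with about 1000 cells on 1 Affymetrix array. The promoter that drives the transgene and the number of animals behind a replicate are not given in the sources used here.

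GABA-A receptors are chloride channels assembled as pentamers, usually of alpha, beta and gamma subunits. The alpha subunits shape the sensitivity to GABA and to benzodiazepines, the beta subunits are needed for assembly and transport to the surface, and the gamma subunits help to hold the receptor at the synapse. The rho subunits form receptors of their own, once called GABA-C receptors, which respond slowly, resist the blocker bicuculline and are best known from the axon terminals of retinal bipolar cells, where amacrine cells inhibit the release of glutamate. The comparison asks which subunits distinguish the MP amacrine from the MP bipolar cells.

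The rho genes Gabrr1 and Gabrr2 are direct neighbours on chromosome 4, with no other protein-coding gene between them in the RefSeq annotation. Both were higher in MP bipolar cells, so the 250 bases before the start of each are shown. They were read from RefSeq's promoter table of the mouse build GRCm38.p6, at chr4:33132306-33132555 for Gabrr1 and chr4:33062862-33063111 for Gabrr2, both on the plus strand. Capitals mark TAATCC or its reverse complement GGATTA, a core that Otx2 and Crx, transcription factors of photoreceptors and bipolar cells, are known to bind.
Gabrr1: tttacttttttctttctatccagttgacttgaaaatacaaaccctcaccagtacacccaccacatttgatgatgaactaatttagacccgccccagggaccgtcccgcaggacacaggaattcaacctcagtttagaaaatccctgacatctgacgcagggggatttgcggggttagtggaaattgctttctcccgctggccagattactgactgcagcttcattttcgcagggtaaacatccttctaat
Gabrr2: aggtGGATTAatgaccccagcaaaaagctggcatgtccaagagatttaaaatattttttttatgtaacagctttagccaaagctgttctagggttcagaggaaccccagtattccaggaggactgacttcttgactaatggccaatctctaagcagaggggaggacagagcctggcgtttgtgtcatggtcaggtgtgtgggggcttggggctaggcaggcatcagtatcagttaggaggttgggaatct

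The window of Gabrr2 held 1 match, which begins 246 bases before the start, and that of Gabrr1 held none. The table had 11 such windows for the 7 subunit genes, since Gabra3, Gabrb1 and Gabrb2 have several starts. Of these, 2 held TAATCC on either strand, those of Gabrr2 and Gabra2, and 0 held CAGCTG, a palindromic E-box that some bHLH factors bind. Over all 32851 windows of the same length, 6.25% held TAATCC and 13% held CAGCTG. A match describes the letters only.

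The sorted cells carried the markers of their labels. All 7 amacrine markers examined, among them Pax6, Tfap2b and Neurod6, were higher in MP amacrine cells, with summed intensities of 6187 and 5714 in the amacrine samples against 286.1 and 277.6 in the bipolar samples. All 4 tested bipolar markers, Otx2, Vsx1, Cabp5 and Fezf2, were higher in MP bipolar cells, and the 5 with a probe set summed to 9733 and 9959 there against 1998 and 1794 on the amacrine arrays. Trpm1, a channel of ON bipolar cells, was near 25 on all 4 arrays and too dim to be tested. Rod markers were bright in both groups, with sums of 10410 and 6150 in the amacrine and 6930 and 8509 in the bipolar samples, and none of the 4 tested was called. Horizontal cell markers summed to 807.4 and 550.7 in the amacrine and 323.5 and 236.3 in the bipolar samples. Of these, Calb1 read 516.6 and 39.5 on the amacrine arrays and Onecut2 read 191.4 and 453.3. Ganglion cell markers summed to 1316 on MP amacrine replicate 1 and to 124.8 to 223.7 on the others. Most of the 1316 was Nefl, which read 1102 and 87.5 on the amacrine arrays. Pou4f1 read 156.8 and 88.8 there, and Rbpms and Sncg were too dim to be tested. Müller glia markers summed to 2581 and 2284 on the amacrine and 1975 and 2367 on the bipolar arrays, microglial markers to 472.1 and 835.6 against 347.6 and 229.6, and cone markers to between 893.5 and 1043 on the 4 arrays. Single markers of these lists moved apart from their sums. The cone gene Gnat2 was called as higher in amacrine cells (548.3 and 561.4 against 238.7 and 242.9, adjusted p = 0.00925, limma), while the cone opsin Opn1sw read 214.7 and 49.9 against 419.6 and 372.1 and was not called (adjusted p = 0.0621). The microglial receptor Csf1r was called as higher in amacrine cells on its brightest probe set (adjusted p = 0.0484). The part of these cells in the results was not tested. Endothelial markers summed to no more than 75.4. The Gapdh control probe set of the 3-prime end exceeded that of the 5-prime end by 3.21 on the log2 scale on MP amacrine replicate 2, against 1.78 to 2.0 on the other arrays. The array medians lay between 44.5 and 47.2.

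Of the 7 subunits, 4 were higher in MP bipolar cells, namely Gabrb1, Gabrr1, Gabrb2 and Gabrr2, and 1, Gabra3, was higher in MP amacrine cells. Gabra2 did not pass the test and Gabrg3 was too dim to be tested. The log2 difference, or log2 fold change, is that of the mean log2 values of the groups. A gene was tested when its brightest probe set exceeded the median of the array on 2 or more of the 4 arrays, and it was called at an adjusted p under 0.05 (limma, Benjamini-Hochberg over all 11583 tested genes). Of all tested genes 13.5% were called, 6.92% as higher in bipolar and 6.54% as higher in amacrine cells. Gabra3 and Gabrr2 entered the test only through the group in which they were bright and so had to differ, and the count of calls is a description. The median log2 fold change of the 6 tested subunits was -2.39, against -0.03 over all tested genes. Fold changes are amacrine minus bipolar differences of log2(intensity + 16), which understates the difference of dim genes. In such bulk samples, fewer cells that express a gene and less of its RNA per cell cannot be told apart, and levels are not compared between genes because probe sets differ in brightness.

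**Figure D1:**
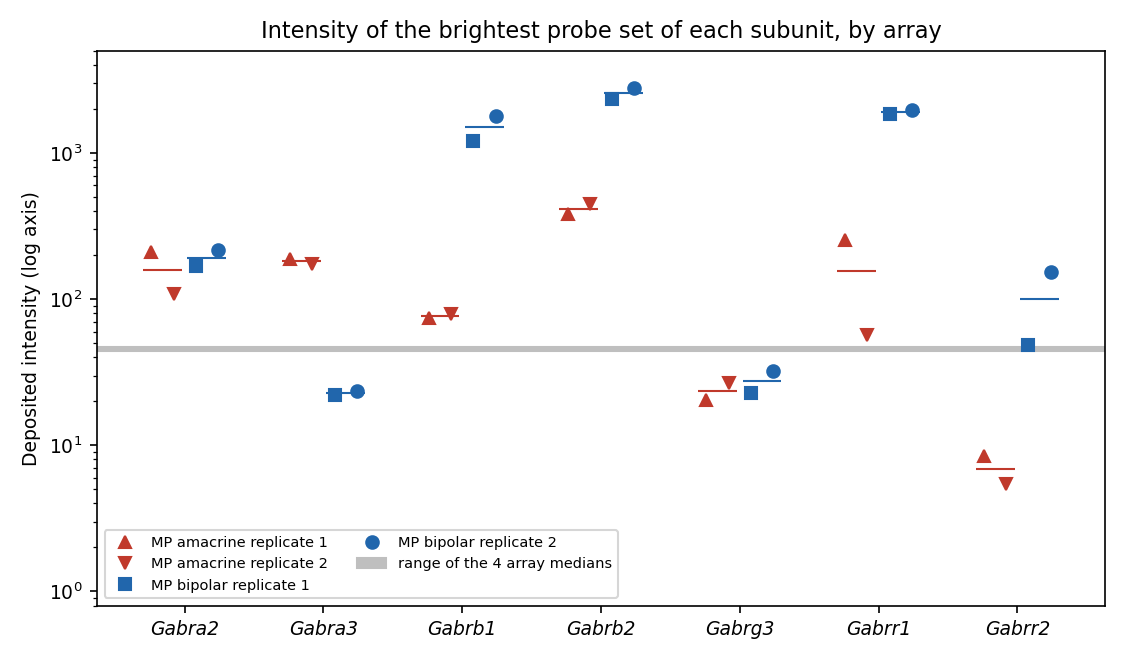
Deposited intensity (log axis) of the brightest probe set of each of the 7 subunits on the 4 arrays, with short lines at the group means and a grey band over the range of the 4 array medians. Gabrb1, Gabrb2, Gabrr1 and Gabrr2 lie higher on both bipolar arrays, Gabra3 on both amacrine arrays, and the groups overlap for Gabra2 and Gabrg3.

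Among the alpha subunits, which form part of the GABA and benzodiazepine binding sites, Gabra3 was the only member higher in MP amacrine cells. Its intensity was 189.6 and 174.3 in the amacrine samples and 22.2 and 23.5 in the bipolar samples. Both bipolar values lay below the array medians and the groups did not overlap. The means were 181.9 ± 10.8 and 22.8 ± 0.891 (SD, n = 2), a log2 difference of 2.35 (SE 0.20, adjusted p = 1.98e-04, limma) or 5.10-fold on this scale. With an offset of 1 in place of 16 the difference was 2.94, and with 64 it was 1.5, the call standing in both. The other probe set of Gabra3 was dim, at 26.8 and 41.0 in the amacrine and 34.3 and 23.2 in the bipolar samples, and there the groups overlapped.

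Gabra2, the subunit of many forebrain GABA-A receptors, showed no detectable difference. Its brightest probe set read 208.8 and 107.7 in the amacrine and 169.8 and 215.4 in the bipolar samples, so the amacrine arrays spanned nearly the whole range of both groups. The log2 fold change was -0.31 with a 95% interval of -1.04 to 0.41 (adjusted p = 0.618, limma), which leaves room for differences of up to 1 on the log2 scale in favour of bipolar cells. Without MP amacrine replicate 2 the sign turned, to 0.12. Its other 4 probe sets, 2 of which were designed on the same sequence record, lay below the median on every array, with intensities from 1.65 to 36.4.

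Both beta subunits were higher in MP bipolar cells on most of their probe sets. Gabrb1 read 73.7 and 78.7 in the amacrine samples and 1202 and 1796 in the bipolar samples. The gap between the groups was far wider than that between the bipolar arrays. The log2 difference was -4.01 (SE 0.26, adjusted p = 5.05e-05, limma), 16.1-fold on this scale. A 2nd probe set read 20.5 and 14.3 against 480.0 and 592.5, a log2 difference of -4.04 (SE 0.23). A 3rd read 7.71 and 12.9 against 115.6 and 116.1, a log2 difference of -2.33 (SE 0.21), where the amacrine values lay below the offset. All 3 were called when probe sets were tested singly (adjusted p = 1.71e-04 to 0.00102, limma over 19168 probe sets), but the 2nd and the 3rd passed the filter only through the bipolar arrays and so had to differ. The 4th was listed at 1 on all 4 arrays and reports nothing.

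Gabrb2, the beta subunit of the most common GABA-A receptors of the brain, was bright in both groups. Its brightest probe set read 380.2 and 445.2 in the amacrine and 2343 and 2770 in the bipolar samples, with means of 412.7 ± 46.0 and 2556 ± 301.5 (SD, n = 2). The log2 difference was -2.58 (SE 0.19, adjusted p = 1.05e-04, limma), 6.00-fold. Gabrb2 therefore remained above the array median in amacrine cells, unlike Gabrr2 and most Gabrb1 probe sets. Of its 5 probe sets 4 were called as higher in bipolar cells, with log2 fold changes from -3.01 to -2.32, and 3 of these 4 share the sequence record they were designed on.

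The 5th and dimmest probe set of Gabrb2 went against the others. It read 67.8 and 90.7 in the amacrine and 74.1 and 63.6 in the bipolar samples, above the median on all 4. The groups overlapped, and its log2 fold change was 0.16 with a 95% interval of -0.37 to 0.69 (adjusted p = 0.759, limma over all probe sets), an interval that lies wholly apart from those of the other 4.

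**Figure D2:**
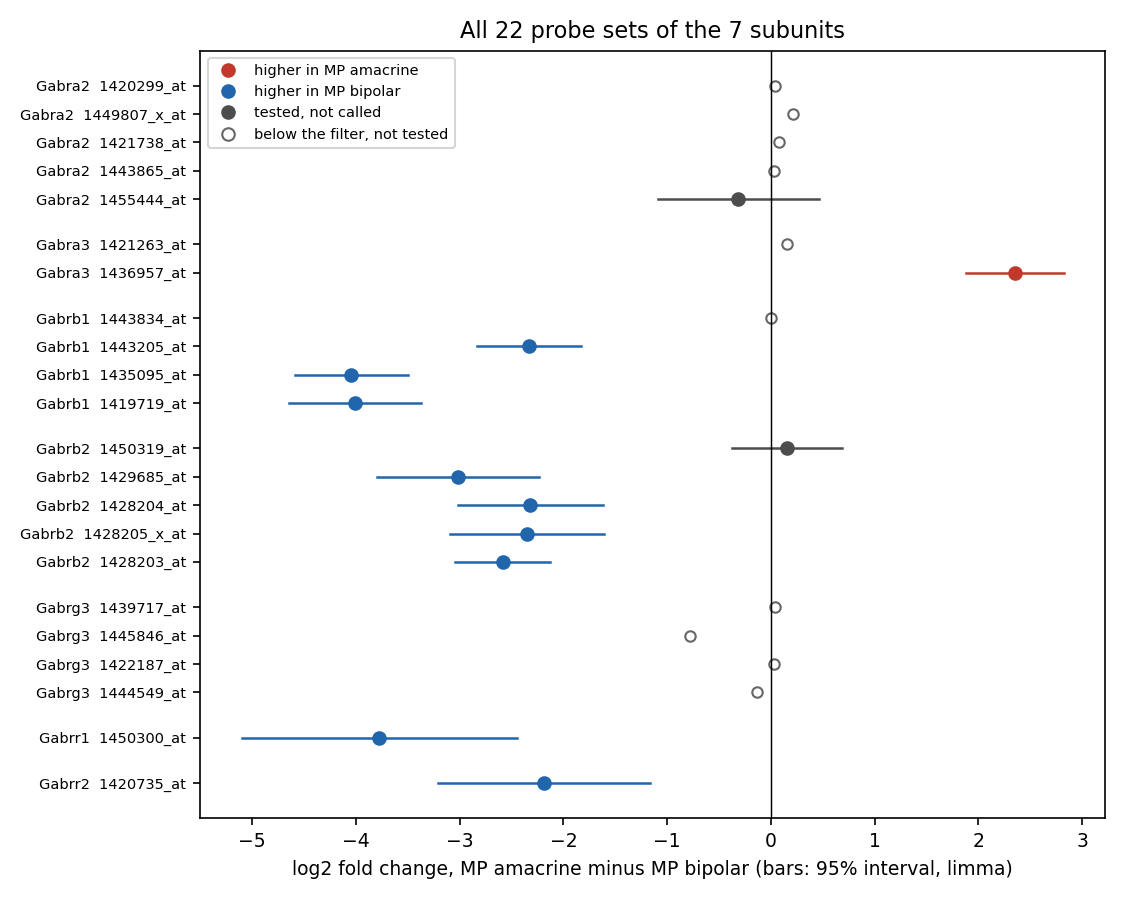
Log2 fold change of each of the 22 probe sets, amacrine minus bipolar, with 95% intervals from limma fitted on all 19168 probe sets above the filter; open circles are the 10 probe sets below the filter, which have no test. The called probe sets of Gabrb1 and Gabrb2 lie between -4.04 and -2.32, while the dimmest of Gabrb2 lies at 0.16.

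Taken singly, 12 of the 22 probe sets lay above the filter. Of these, 9 were called as higher in bipolar cells, 1 as higher in amacrine cells and 2 were not called, where 5.19%, 5.04% and 10.2% of all probe sets above the filter were called as higher in bipolar cells, as higher in amacrine cells and in either direction. Of the 10 called, 4 passed the filter only through the group in which they were bright and so had to differ, which were 2 of Gabrb1 and those of Gabrr2 and Gabra3, and the count is a description. Over all 22, both bipolar arrays lay above both amacrine arrays for 10, the reverse held for 1, and the groups overlapped for 11. Over the 34945 probe sets of a single gene the first pattern held for 23.8%, the reverse for 21.5% and either for 45.3%. Probe sets of 1 gene share their transcript and are not independent.

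The rho subunits had 1 probe set each. Gabrr1, the rho1 subunit that can form receptors by itself, read 254.0 and 56.6 in the amacrine samples and 1856 and 1953 in the bipolar samples. The bipolar arrays were close to each other, the amacrine arrays were not, and every bipolar value stood above every amacrine value. The means were 155.3 ± 139.6 and 1905 ± 67.9 (SD, n = 2). The log2 difference was -3.78 (SE 0.52, adjusted p = 0.00224, limma), 13.7-fold, with a 95% interval of -4.99 to -2.57. It was -4.72 without MP amacrine replicate 1 and -2.83 without MP amacrine replicate 2. The call was lost when dim genes were tested as well (adjusted p = 0.0548).

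Markers of bipolar cells differed between the amacrine arrays too. Cabp5, a calcium-binding protein of bipolar cells, read 259.4 on MP amacrine replicate 1 and 29.4 on replicate 2. Vsx1, a transcription factor of cone bipolar cells, read 153.9 and 67.7, and Fezf2, another such factor, 38.9 and 24.1. Otx2 (1523 and 1646) and Trpm1 (22.4 and 26.7) did not share this order, and the list of 5 summed to 1998 and 1794 on these arrays. The part of bipolar cells in the Gabrr1 signal of MP amacrine replicate 1 was not tested. MP amacrine replicate 2, where Gabrr1 was lower, was the array with the Gapdh end difference of 3.21, and its part was not tested either. Without MP amacrine replicate 1 the Gabrr1 difference was larger, as given above.

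**Figure D3:**
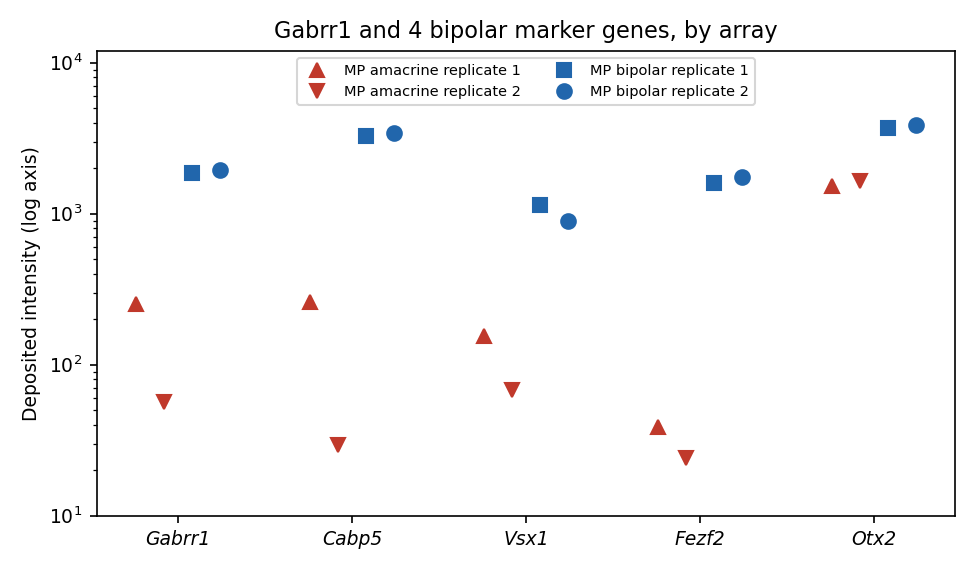
Deposited intensity (log axis) of Gabrr1 and of the 4 tested bipolar markers on the 4 arrays, each on its brightest probe set. Gabrr1, Cabp5, Vsx1 and Fezf2 are brighter on MP amacrine replicate 1 than on replicate 2, Otx2 is not, and all 5 genes lie higher on both bipolar arrays.

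Gabrr2, the rho2 subunit, was dim. It read 8.43 and 5.45 on the amacrine arrays, below the offset of 16, and 48.6 and 152.7 on the bipolar arrays, where the lower value was just above the median of its array. The groups did not overlap, but the bipolar arrays were far apart. The log2 difference was -2.19 (SE 0.40, adjusted p = 0.00907, limma), and it was -3.48 with an offset of 1 and -1.14 with an offset of 64. It was -2.88 without MP bipolar replicate 1 and -1.50 without MP bipolar replicate 2. The call was lost when dim genes were tested as well (adjusted p = 0.101).

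Gabrg3, the only gamma subunit among the members, was below the median on every array in all 4 of its probe sets. The brightest read 20.3 and 26.6 in the amacrine and 22.7 and 32.3 in the bipolar samples, and the groups overlapped. A dimmer one read 11.4 and 2.69 against 21.0 and 24.7, the only Gabrg3 probe set without overlap. At these intensities a difference was not detectable.

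Of 8 further subunit genes with a probe set, 5 were tested. Of the 5, Gabrg1 was called as higher in amacrine cells and Gabra4 and Gabra5 as higher in bipolar cells. Over all tested genes 6.54% were called as higher in amacrine and 6.92% as higher in bipolar cells. Gabrg1, a gamma subunit, read 143.9 and 124.6 in the amacrine and 49.9 and 50.5 in the bipolar samples, a log2 difference of 1.18 (SE 0.20, adjusted p = 0.00675, limma). Its call was lost without either bipolar replicate (adjusted p = 0.0525 and 0.0557). Gabra4 read 16.4 and 11.8 against 146.6 and 77.9, a log2 difference of -2.04 (SE 0.29, adjusted p = 0.00238), and it too was tested only through its bipolar arrays.

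Gabra5, an alpha subunit often found outside synapses, was called narrowly. It read 108.1 and 33.4 in the amacrine and 170.0 and 255.6 in the bipolar samples, a log2 difference of -1.52 (SE 0.42, adjusted p = 0.0494, limma), and the call was lost in 13 of 19 alternative analyses. Without MP amacrine replicate 2 the difference was -0.86 (adjusted p = 0.134), and the call was also lost without MP bipolar replicate 1 (adjusted p = 0.0593) or replicate 2 (adjusted p = 0.22). Gabre (log2 fold change 0.21, adjusted p = 0.619) and Gabrp (0.10, adjusted p = 0.828) were not called. Gabra6, Gabrd and Gabrq were too dim, with intensities between 2.41 and 40.4 on their brightest probe sets.

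Most subunit genes lie in groups of neighbours, and on chromosome 5 such a group held calls in both directions. There the order of genes is Gabrg1, Gabra2, Gabra4 and Gabrb1, with 1 other protein-coding gene between Gabra2 and Gabra4 and none between the others. Along this order the log2 fold changes were 1.18, -0.31, -2.04 and -4.01, and the genes at the ends were called in opposite directions. Gabra2 was not called and changed sign without MP amacrine replicate 2. The amacrine values of Gabra4 lay near the offset, and with an offset of 1 its difference was -2.85. The call of Gabrg1 did not hold in every alternative, as given above. On chromosome X, Gabra3 was called as higher in amacrine cells while Gabre was not called and Gabrq was too dim. On chromosome 4, Gabrr2 and Gabrr1 went the same way. Gabra6, next to Gabrb2 on chromosome 11, and Gabrg3, next to Gabra5 on chromosome 7, were too dim for such a statement.

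**Figure D4:**
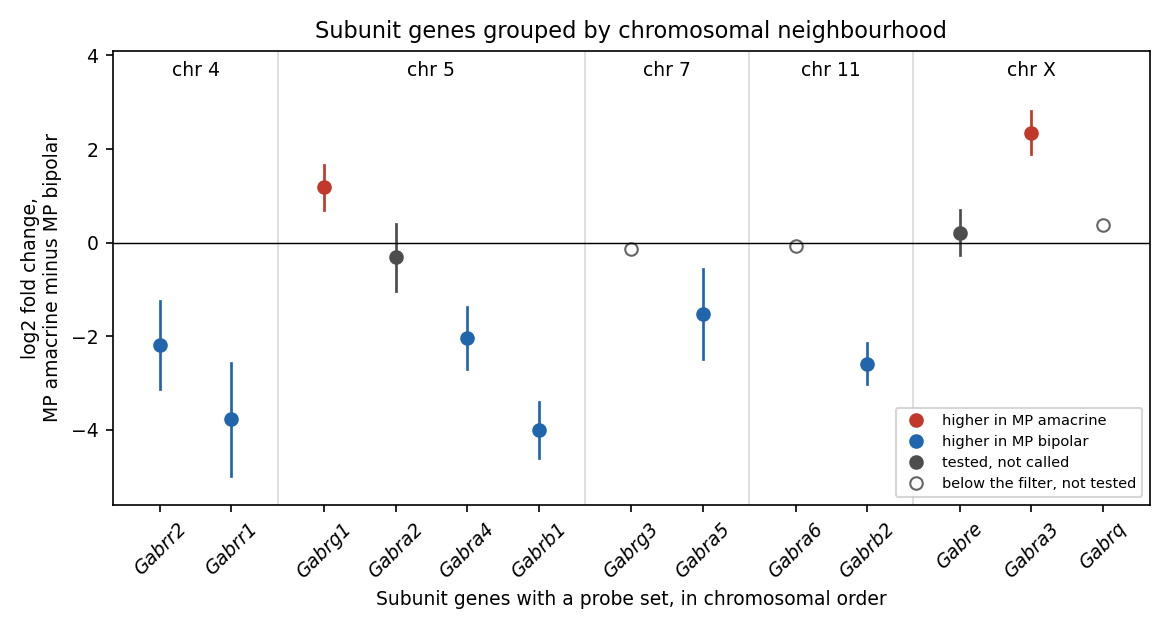
Log2 fold change, amacrine minus bipolar, of the subunit genes with a probe set, placed in chromosomal order within 5 neighbourhoods, with 95% intervals from limma on all 11583 genes; open circles are genes below the filter. On chromosome 5, Gabrg1 lies at 1.18 and Gabrb1 at -4.01, and of the genes between them Gabra2 was not called.

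Of the proteins that anchor, assemble or carry GABA-A receptors, Plcl1 and Iqsec3 differed most, both higher in bipolar cells. Of 27 with a probe set 24 were tested, 7 were called as higher in bipolar cells, 2 as higher in amacrine cells and 15 in neither direction, with a median log2 fold change of -0.23 against -0.03 over all genes. Over all tested genes 6.92% were called as higher in bipolar and 6.54% as higher in amacrine cells, and the 2 amacrine calls are near that share. Plcl1 and Insyn2a passed the filter only through the group in which they were bright and so had to differ. Plcl1, which binds beta subunits and GABARAP, read 23.2 and 30.8 against 164.0 and 221.5 (log2 fold change -2.27, SE 0.23, adjusted p = 4.70e-04, limma). Iqsec3, an Arf activator of inhibitory synapses, read 399.7 and 407.8 against 1389 and 1862 (-1.95, SE 0.21). Iqsec3 was above the median on all 4 arrays, and its call held in all 19 alternative analyses.

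The other genes of this list called as higher in bipolar cells were Nsf (-1.41), an ATPase that binds beta subunits, Hap1 (-1.30), an adaptor for receptor transport, Lhfpl3 (-1.29), a relative of the receptor partner Lhfpl4, Trak2 (-1.25), a trafficking adaptor that binds Gabrb2, and Dmd (-0.99), dystrophin. Their adjusted p lay between 0.00636 and 0.0444. Without MP bipolar replicate 2 fewer genes of this list were called as higher in bipolar cells. The number called over all genes also moved when 1 replicate was left out. The call of Trak2 was lost in 12 of 19 alternatives. Insyn2a (1.35) and Mkln1 (0.78), which were higher in amacrine cells, lost their calls in 5 of 18 and 13 of 19 alternatives, and the mean of the Mkln1 probe sets gave 0.02. Gephyrin, Gphn, the main scaffold of inhibitory synapses, read 798.9 and 725.2 against 1044 and 1115 and was not called (-0.49, adjusted p = 0.139). Lhfpl4 (0.01), Nlgn2 (0.28), a neuroligin of inhibitory synapses, and Map1b (-0.29), which binds rho subunits, were not called either. Another Map1b probe set, tested only through its bipolar arrays, read 31.7 and 26.8 against 141.9 and 73.9 and was called as higher in bipolar cells (-1.40, adjusted p = 0.0302, limma over all probe sets).

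Chloride cotransporters set the direction of the current through these receptors. Slc12a5, the extruder KCC2, was bright in both groups, at 3485 and 3159 in the amacrine and 4622 and 5542 in the bipolar samples. The log2 difference was -0.61 (SE 0.12, adjusted p = 0.0114, limma), and the call was lost in 5 of 19 alternatives, among them without MP bipolar replicate 2 (adjusted p = 0.14), without the filter (0.0984) and without the intensity trend (0.109). Slc12a2, the importer NKCC1, read 1185 and 978.3 against 1428 and 1820 (-0.58, adjusted p = 0.1) and was not called. Of 3 tested cotransporters, Slc12a5 was the only one called, where 13.5% of all tested genes were called.

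Metabotropic GABA receptors signal through G proteins. Their subunit gene Gabbr1 read 1203 and 791.7 against 1010.5 and 924.3 (log2 fold change 0.01, adjusted p = 0.982, limma), and the groups overlapped. Kctd8, an auxiliary protein of these receptors, was higher in amacrine cells on both probe sets, the brighter reading 325.4 and 912.0 against 30.7 and 17.4 (3.83, SE 0.44, adjusted p = 8.29e-04). Its difference was 4.55 without MP amacrine replicate 1 and 3.11 without MP amacrine replicate 2. The related Kctd12b was higher in bipolar cells (-1.04, SE 0.20, adjusted p = 0.0118), and Kctd16 (-0.05) was not called. Kctd8 and Kctd12b passed the filter only through the group in which they were bright, on both probe sets of each. On the presynaptic side 2 of 4 tested genes were called, both higher in amacrine cells, where 13.5% of all tested genes were called. They were the vesicular transporter Slc32a1, also among the amacrine markers above, and the GABA-degrading enzyme Abat. A dimmer Slc32a1 probe set, above the median on all 4 arrays, read 78.9 and 95.8 against 68.3 and 71.0. It was not called (0.27, adjusted p = 0.533, limma over all probe sets). With the mean of its probe sets the Slc32a1 difference was 1.80, and the call stood. Of the GABA-synthesizing enzymes, Gad2 read 169.1 and 215.5 against 131.1 and 190.5 and was not called (0.25, adjusted p = 0.635, limma). Gad1 was too dim to be tested, at 37.96 and 61.68 against 8.58 and 9.93. The GABA transporter gene Slc6a11 was not called on its representing probe set (-0.67, adjusted p = 0.0631). Its other probe set read 9.77 and 12.4 against 108.0 and 97.5 and was called as higher in bipolar cells (-2.13, adjusted p = 0.00122, limma over all probe sets), and with the mean of the probe sets 1 gene of this list was called as higher in bipolar cells. Both Slc6a11 probe sets passed the filter only through the bipolar arrays. Without the filter, 3 of 6 genes of this list were called as higher in amacrine cells and 0 as higher in bipolar cells. In that setting 400 of all 18193 genes were called as higher in amacrine cells.

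**Figure D5:**
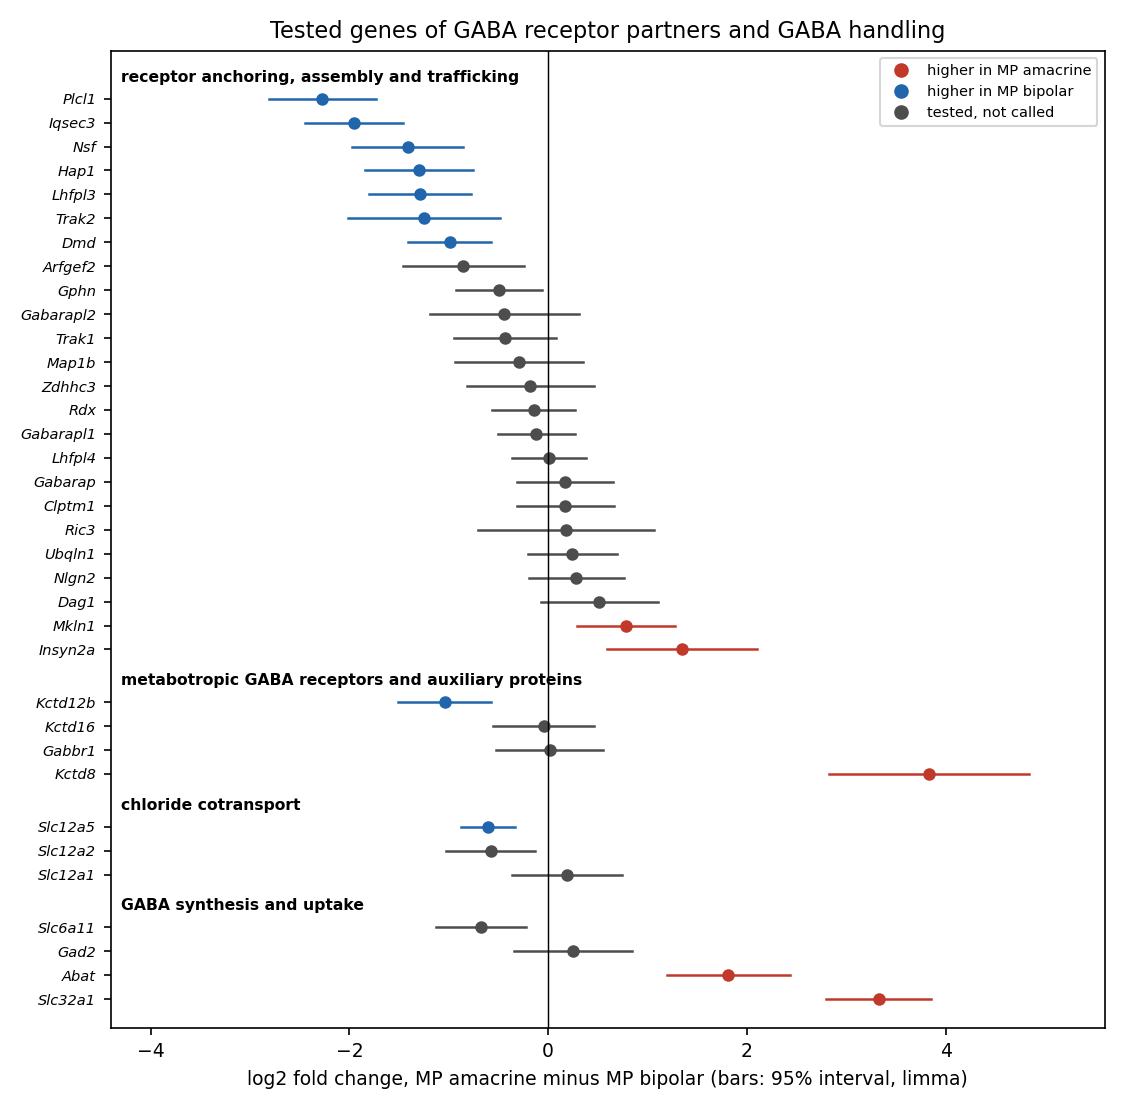
Log2 fold change, amacrine minus bipolar, of the tested genes of 4 lists of GABA receptor partners and GABA handling, with 95% intervals from limma on all 11583 genes. In the first list 7 genes lie to the left as higher in bipolar cells and 2 to the right as higher in amacrine cells; Kctd8, at 3.83, and Slc32a1, at 3.33, lie farthest to the right.

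The genes most alike in pattern were taken as those with the smallest distance between log2 values centred over the 4 arrays, with 3 named per tested subunit. For Gabra3 they were Rem2, a small GTPase, Shank3, a postsynaptic scaffold, and the potassium channel gene Kcna2, at distances of 0.07 to 0.13. For Gabrb2 they were the ubiquitin ligase Lnx1, the adhesion protein Igsf3 and Rgs11, a G protein regulator of ON bipolar cells (0.09 to 0.16). For Gabrb1 they were the matrix protease Mmp2, Tmeff2 and the leak channel gene Kcnk3 (0.19 to 0.37). Mmp2 read 79.7 and 81.4 in the amacrine and 1458 and 1871 in the bipolar samples, close to the readings of Gabrb1.

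For Gabrr1 the closest genes were farther off, at 0.45 to 0.52, namely the calmodulin-binding protein Pcp4, Lrit2 and the secreted antagonist Sostdc1. All 3 shared its unequal amacrine arrays, as Pcp4 did with 953.3 and 288.2 against 5625 and 5535. For Gabrr2 they were Inpp4b, Trim25 and Gm20754 (0.21 to 0.33), each brighter on MP bipolar replicate 2 than on replicate 1, as Inpp4b was with 402.4 and 161.2. For Gabra2 they were Ptprn2, Pank4 and Klhdc4 (0.03 to 0.06), none of which was called. With 4 arrays many genes share a pattern, and the distance describes these arrays only. The genes were chosen on these same values, so the shared unequal replicates follow largely from the choice.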

How the data were processed

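The values are the authors' deposited intensities, linear, with 1 value for each probe set on each array; the sources used here do not give how they were summarised, background-corrected or scaled. Per the labels' protocols, PicoPure-extracted RNA went through 2 rounds of amplification with biotin labelling. Of 45101 probe sets, 64 controls, 932 with several genes and 9160 without a gene were left out. The table carries no detection calls. Values were used as log2(intensity + 16). Each gene was represented, before filtering, by its brightest probe set on the mean of these log2 values. Groups came from the sample titles. MP amacrine and MP bipolar arrays were compared with limma 3.58.1 in R 4.3.3 (lmFit, eBayes with an intensity trend, two-sided, 2 residual degrees of freedom), with Benjamini-Hochberg adjustment over all tested genes, and the same fit was made on all probe sets singly. The number of arrays limits the precision.

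On simulated data for this comparison (20 runs of 11583 genes, 200 changed in each) the test recovered 26.3%, 94.7% and 99.5% of genes given log2 changes of 1, 2 and 3. Of its calls 5.52% were false. The simulated spreads were drawn from the fitted model, and fewer genes were changed than the 1559 called in the data. The shares recovered and false may therefore differ in the data.

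All subunits with all probe sets were named, every further subunit, and the called genes of the partner lists, with a few uncalled genes of these lists chosen after their values were seen. The members and lists were chosen with earlier results of these data known. Same-numbered replicates did not deviate together (r = -0.04 over 11583 genes), so the numbers were not taken to pair the arrays. Alternatives were other scalings, filters, offsets, probe set choices, variance moderation, array weights, thresholds, the replicate block and each replicate left out of the fit.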

Additional observations from a re-analysis of the deposited data

How the results depend on the processing

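The number of subunits called, 5, was the same under quantile, cyclic loess and median scaling, offsets of 1 and 64, other probe set choices, variance moderation, array weights, an adjusted p under 0.01, the replicate block and with each replicate left out in turn. It was 4 with the filter at the 75th percentile and in the test against a log2 fold change of 1, where Gabrr2 had an adjusted p of 0.2, and 3 without the filter. Gabra3, Gabrb1 and Gabrb2 stayed called in all 19 alternatives. Gabra2, not called in any alternative, ranged from -0.75 to 0.12 with 1 replicate left out and changed sign without MP amacrine replicate 2. The genes called over the whole table, 1559, were 785 without the filter, 883 at an adjusted p under 0.01, 406 in the test against a fold change, 1932 with the replicate block, and 917 to 1939 with 1 replicate left out. The probe sets called, 1961, were 694, 963, 487, 2160 and 819 to 2769 in the same order. Where 1 array of a group was left, its spread was taken from the other group. Values below the offset of 16, such as those of Gabrr2 in amacrine cells, bound the differences that can be measured.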
